A study of Homo sapiens with 12 samples.

Results

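The kinesin genes of T-47D cells were followed through exposure to palbociclib. The family was taken as every gene in the authors' RNA table whose symbol is KIF or KIFC followed by a number and, where present, a letter from A to C. This gave 36 genes of the 19460 in the table. Another 6 human kinesins that carry such a symbol, KIF1A, KIF2B, KIF17, KIF19, KIF25 and KIF26B, have no row in it and were not analysed here. Of the 36, 13 were grouped by textbook role as working on the spindle or in cytokinesis and are called mitotic kinesins below. The other 23 divide into cargo transport (13 genes), cilium and hedgehog signalling (5) and microtubule regulation or other roles (5).

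Kinesins are motor proteins that hydrolyse ATP to move along microtubules or, in a few branches, to take microtubule ends apart. Dividing cells use one set of them to separate the spindle poles, align and pull chromosomes and build the midbody. Interphase cells use another set to carry vesicles, organelles and ciliary components. Many mitotic kinesin genes are transcribed mainly in G2 and M phase, and cell cycle genes of this kind often carry a cell cycle homology region and boxes for the factor NF-Y in their promoters.

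T-47D is an established human breast cancer line with luminal features, labelled here as wild type. Cells received 1 µM palbociclib, an inhibitor of the G1 kinases CDK4 and CDK6, or DMSO, the solvent, for 24 h. Poly(A) RNA was sequenced from 3 DMSO and 3 palbociclib libraries. ATAC-seq, in which the transposase Tn5 inserts adapters into open chromatin, was run on another 3 and 3, with 0.1% DMSO as control. The ATAC replicates came from separate dishes. The labels do not say so for the RNA libraries, so RNA p-values measure the spread between these samples, which may be technical. All libraries come from 1 cell line. RNA levels are FPKM, a fragment count scaled for gene length and library size. Depth in reads is not stated for them. The ATAC table had 12830062 to 18250496 reads in peaks per library. All 10 luminal epithelial markers looked up, among them ESR1, GATA3 and KRT8, were in the RNA table, with summed levels of 5599 to 6125 FPKM in DMSO and 7522 to 8304 FPKM in palbociclib. Of 4 immune and 3 endothelial markers, 2 and 0 were listed. The 2 immune ones, CD68 and CD14, summed to at most 0.538 FPKM. Of 4 fibroblast markers 3 were listed, with sums of 23.8 to 25.1 FPKM in DMSO and 24.6 to 26.8 FPKM in palbociclib, nearly all of it COL1A1, while COL1A2 and COL3A1 were each below 1 FPKM and DCN was not listed. Of 5 basal or mesenchymal markers 2 were listed, TP63 and VIM, with sums of at most 2.25 FPKM. Their part in the kinesin results was not tested.

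Sequences upstream of the genes are shown first, because the share of windows that hold certain words was higher in the mitotic kinesins than in the others. The RefSeq table on GRCh38.p14 had promoter windows, from 250 bases before the first transcribed base to 50 bases from it on, for 30 of the 36 kinesins, in 37 windows. KIF5A, KIF13B, KIF21B, KIF27, KIFC2 and KIFC3 had no entry. Words searched on both strands were TTTGAA and TTCGAA (the core of the cell cycle homology region), CCAAT (the NF-Y box) and 4 forms of the E2F word. The E2F forms were TTCCCGC as one, TTCGCGC as the next, TTGCCGC after it and TTGGCGC last. The words do not contain one another, but neighbouring matches may overlap. Below are 110 bases of 9 windows, 5′ to 3′ on the gene's own strand, from 80 bases before the first transcribed base to 29 after it. Capitals mark a searched word on either strand. The first 6 are mitotic kinesins that hold a cell cycle homology word near the start. KIF24 is a centriolar kinesin that holds one, KIF20A a mitotic kinesin whose window holds none, and KIF1C a transport kinesin whose RNA was not called.
KIF18B: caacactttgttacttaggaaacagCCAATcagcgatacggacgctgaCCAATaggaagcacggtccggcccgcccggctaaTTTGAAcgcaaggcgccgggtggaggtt
KIF11: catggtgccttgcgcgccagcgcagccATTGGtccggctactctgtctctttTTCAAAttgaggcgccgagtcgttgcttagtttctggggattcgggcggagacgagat
KIF4A: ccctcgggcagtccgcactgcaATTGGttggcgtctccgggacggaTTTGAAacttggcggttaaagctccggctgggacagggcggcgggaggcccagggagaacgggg
KIF14: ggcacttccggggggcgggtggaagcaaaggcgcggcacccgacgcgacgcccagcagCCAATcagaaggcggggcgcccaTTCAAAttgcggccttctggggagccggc
KIF23: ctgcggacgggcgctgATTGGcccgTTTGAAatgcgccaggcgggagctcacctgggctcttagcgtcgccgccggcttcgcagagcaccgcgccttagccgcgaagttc
KIF22: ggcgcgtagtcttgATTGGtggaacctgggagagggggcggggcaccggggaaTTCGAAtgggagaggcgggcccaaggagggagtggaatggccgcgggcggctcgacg
KIF24: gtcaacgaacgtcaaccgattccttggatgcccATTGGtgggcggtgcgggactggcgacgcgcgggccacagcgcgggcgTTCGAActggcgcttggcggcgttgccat
KIF20A: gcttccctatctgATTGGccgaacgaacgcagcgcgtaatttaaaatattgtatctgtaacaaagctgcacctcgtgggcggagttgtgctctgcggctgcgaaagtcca
KIF1C: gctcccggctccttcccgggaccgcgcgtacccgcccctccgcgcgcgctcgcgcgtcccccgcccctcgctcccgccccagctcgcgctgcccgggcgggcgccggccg
The stretches lie at chr17:44947744-44947853 (minus strand) for KIF18B, chr10:92593050-92593159 (plus strand) for KIF11, chrX:70290024-70290133 (plus strand) for KIF4A, chr1:200620722-200620831 (minus strand) for KIF14, chr15:69414269-69414378 (plus strand) for KIF23, chr16:29790671-29790780 (plus strand) for KIF22, chr9:34329239-34329348 (minus strand) for KIF24, chr5:138179032-138179141 (plus strand) for KIF20A, chr17:4997870-4997979 (plus strand) for KIF1C.

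In these stretches the homology word stood at positions 2 to 7 in KIF18B, -28 to -23 in KIF11, -34 to -29 in KIF4A, 1 to 6 in KIF14, -55 to -50 in KIF23 and -27 to -22 in KIF22, counting the first transcribed base as 0. KIF22 and KIF24 had the TTCGAA form. Over whole windows, 12 of 14 mitotic kinesin windows (85.7%) held a homology word. Of the 23 windows of other kinesins 2 did (8.7%), and of all 35116 promoters listed by RefSeq 16.4% did. Among 15436 promoters of genes tested for RNA the share was 11.8%. CCAAT was in 78.6% of mitotic windows, 39.1% of the others and 34.6% of all promoters. Both words together were in 71.4%, 8.7% and 6.38%. E2F words were in 28.6%, 17.4% and 13.0%. Among promoters of genes tested for RNA, CCAAT was in 35.1%, both words together in 4.78% and E2F words in 19.2%. KIF22 has 2 overlapping windows that share 1 homology word, and windows of 1 gene are not independent. A match describes letters and not a bound site.

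The 2 windows outside the mitotic set that held a homology word belong to KIF24 and KIF5B. In KIF24 it lay at 1 to 6, with CCAAT boxes starting at -154, -100 and -47. In KIF5B it lay farther upstream, at -140 to -135. Both genes were lower after palbociclib, as given below. Of the 12 other non-mitotic kinesins that have a window and were tested for RNA, 2 were lower and 1 was higher, with a median change of 0.04 log2. Among all genes tested for RNA 22.9% were lower and 20.9% higher. The word was not present in every gene that fell. KIF20A, among the steepest falls, had CCAAT boxes starting at -94 and -67 but no homology word, and the KIF2C window held none of the words. The median change of these 2 mitotic genes was -3.38 log2, beside -2.76 in the 10 tested mitotic genes with a homology word.

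**Figure D1:**
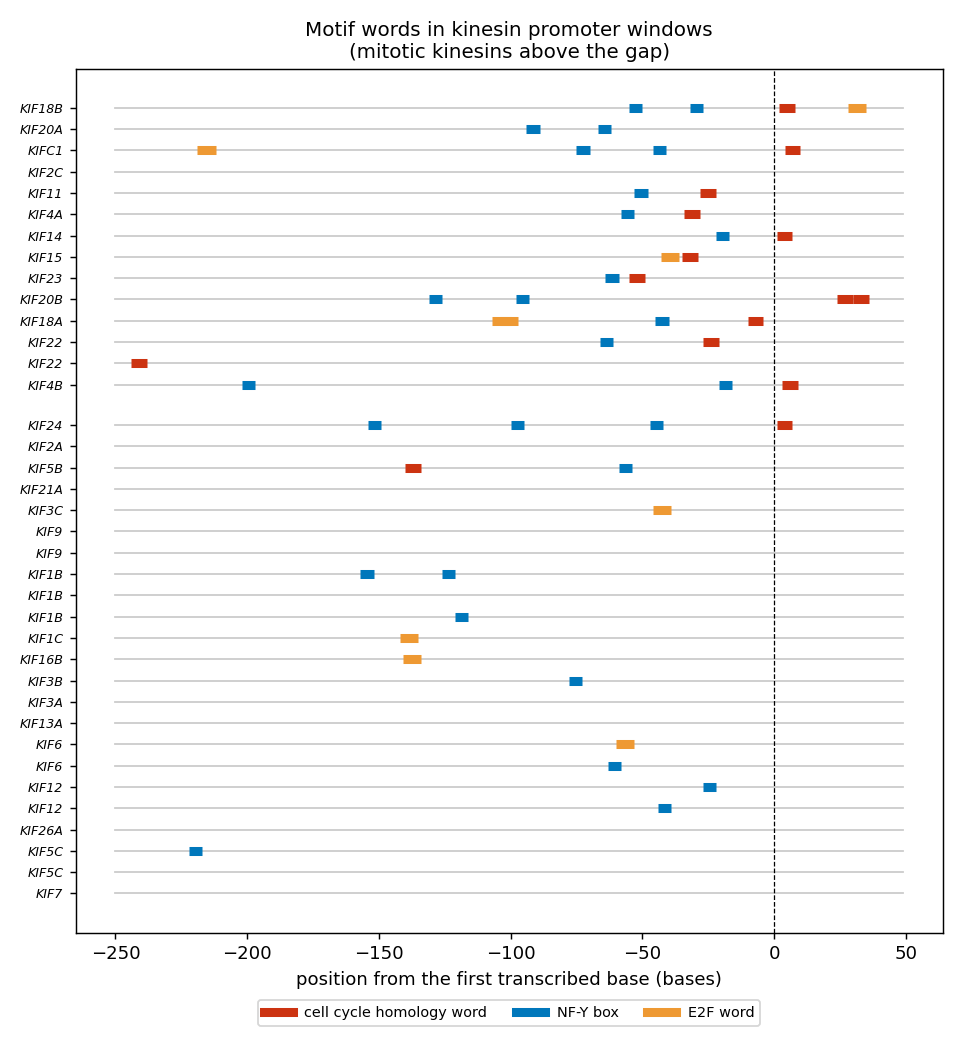
Position of each searched word in the 37 kinesin promoter windows, in bases from the first transcribed base (dashed line); each grey line is 1 window and rows are ordered by RNA change within the mitotic (top) and other kinesins. Red marks, the cell cycle homology words, occur in 12 of 14 mitotic windows and 2 of 23 others.

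RNA of the mitotic kinesins fell to a small part of its level, and the sum over the rest of the family overlapped between treatments. The summed level of the 13 mitotic genes was 396, 390 and 381 FPKM in DMSO replicates 1 to 3 and 50.7, 51.8 and 51.2 FPKM in palbociclib replicates 1 to 3. The summed level of the other 23 was 311, 309 and 313 FPKM in DMSO and 317, 312 and 311 FPKM in palbociclib. The mitotic share of kinesin RNA went from 55.6% ± 0.618 to 14.1% ± 0.231 (SD, n = 3 libraries per group). No library of one treatment came near those of the other in the mitotic sum, while the sums of the rest overlapped. The sum of the rest pools rises and falls of single genes. KIFC2, for example, went from a mean of 61.6 to 72.5 FPKM and KIF5B from 42.0 to 33.1 FPKM. An overlap of sums therefore does not mean that each gene stayed the same. In bulk RNA, fewer cells in G2 or mitosis and less RNA per cell cannot be told apart.

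**Figure D2:**
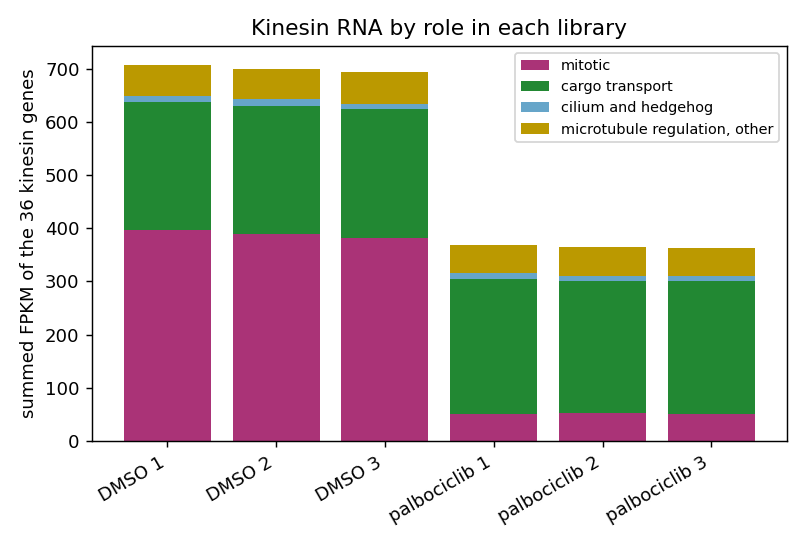
Summed FPKM of the 36 kinesin genes in each RNA library, stacked by role. The bottom, mitotic segment shrinks from 381 to 396 FPKM in DMSO to 50.7 to 51.8 FPKM in palbociclib. Together the segments above it reach 309 to 313 FPKM in DMSO and 311 to 317 FPKM in palbociclib, with rises and falls of single genes inside that sum.

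The test was limma on log2(FPKM + 1), with Benjamini-Hochberg adjustment over all 15869 genes with a mean of at least 0.5 FPKM, and a gene was called at an adjusted p under 0.05. Of the 36 kinesins 30 passed this filter, and 16 were lower, 3 higher and 11 not called. Over all genes tested 22.9% were lower, 20.9% higher and 43.7% either. All 12 mitotic kinesins tested were lower, each by at least 1 log2, a fall that 3.04% of all genes showed. Their median change was -2.79, beside 0.0023 over all genes. Their adjusted p-values in limma lay between 4.11e-10 (KIF20A) and 2.09e-08 (KIF22). In each of the 12 every palbociclib library was below every DMSO library, an order that 28.2% of all genes showed. Of the 18 other kinesins tested 3 were higher, 4 lower and 11 not called, with a median of 0.06. Below, the remaining level is the palbociclib mean as a percentage of the DMSO mean, ± the SD of the 3 palbociclib libraries on that scale.

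Motors that shape the spindle are described first. KIF11, the plus-end motor that slides the spindle poles apart, was at 51.0, 48.6 and 51.2 FPKM in DMSO and 5.77, 5.40 and 5.79 FPKM in palbociclib. The libraries of a treatment lay close together and far from the other treatment, with 11.2% ± 0.438 of the level remaining and a log2 change of -2.95 (SE 0.04). KIF15, which can hold a bipolar spindle together when KIF11 is impaired, did not stay behind. It was at 10.7, 10.0 and 10.9 FPKM in DMSO and 0.729, 0.731 and 0.715 FPKM in palbociclib, so 6.87% ± 0.0787 remained (log2 change -2.74, SE 0.06). KIFC1, a minus-end motor that gathers spindle poles and extra centrosomes, was the most abundant mitotic kinesin in DMSO, at 55.8, 53.7 and 52.1 FPKM. It was at 4.10, 4.91 and 4.38 FPKM in palbociclib, or 8.28% ± 0.765 (log2 change -3.33, SE 0.06).

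Among regulators of microtubule ends, KIF18B fell most steeply of the family. KIF18B works with KIF2C on the length of astral microtubules, and was at 35.6, 37.4 and 32.0 FPKM in DMSO against 1.92, 1.84 and 1.66 FPKM in palbociclib. That left 5.17% ± 0.385 (log2 change -3.68, SE 0.07). Only 9 of the 15869 genes tested had a larger fall on the log2(FPKM + 1) scale, which compresses falls of weakly expressed genes. KIF2C, the depolymerase known as MCAK that corrects faulty kinetochore attachments, was at 31.7, 31.7 and 28.8 FPKM in DMSO and 2.44, 2.59 and 2.24 FPKM in palbociclib (7.88% ± 0.561, log2 change -3.21, SE 0.06). KIF18A, which damps chromosome movements at the metaphase plate, kept more of its RNA. It was at 21.1, 20.2 and 21.2 FPKM in DMSO and 3.83, 3.91 and 4.22 FPKM in palbociclib, so 19.2% ± 0.998 remained (log2 change -2.13, SE 0.05).

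Both chromokinesins tested, motors that ride on chromosome arms, fell by different amounts. KIF4A, which also shortens the central spindle together with PRC1, was at 16.2, 16.1 and 16.4 FPKM in DMSO and 1.53, 1.38 and 1.55 FPKM in palbociclib (9.14% ± 0.566, log2 change -2.80, SE 0.06). KIF22 kept the most RNA of the mitotic set. It was at 53.6, 52.4 and 49.9 FPKM in DMSO and 15.7, 16.6 and 15.2 FPKM in palbociclib, which left 30.5% ± 1.38 (log2 change -1.65, SE 0.05). KIF4B, a close copy of KIF4A, was listed at 0.0315 to 0.0384 FPKM in DMSO, was below the filter, and could hold reads that belong to KIF4A.

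The cytokinesis motors also fell together. KIF20A, which brings the chromosomal passenger complex to the central spindle, was at 41.8, 41.3 and 39.5 FPKM in DMSO and 2.60, 2.62 and 2.55 FPKM in palbociclib (6.34% ± 0.0904, log2 change -3.54, SE 0.04). KIF14, a midbody motor that binds PRC1 and citron kinase, was at 10.5, 10.5 and 10.2 FPKM in DMSO and 0.675, 0.654 and 0.662 FPKM in palbociclib. It kept 6.37% ± 0.101 of its level (log2 change -2.78, SE 0.06), which did not differ from KIF20A beyond the spread of either. KIF23, the motor of centralspindlin, kept more, with 41.6, 42.0 and 41.4 FPKM in DMSO and 6.43, 6.26 and 6.76 FPKM in palbociclib (15.6% ± 0.609, log2 change -2.51, SE 0.04). KIF20B, a late cytokinesis motor related to KIF20A, was at 26.7, 26.0 and 27.0 FPKM in DMSO and 4.98, 4.90 and 5.40 FPKM in palbociclib (19.2% ± 1.00, log2 change -2.18, SE 0.05). The remaining shares of KIF20B and KIF18A did not differ beyond their spread.

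Since 1 FPKM is added before the logarithm, log2 changes here understate the falls of weakly expressed genes such as KIF14 and KIF15. In the authors' deposited table their log2 changes were -3.97 and -3.86, close to KIF20A (-3.98) and smaller falls than that of KIF18B (-4.28).

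**Figure D3:**
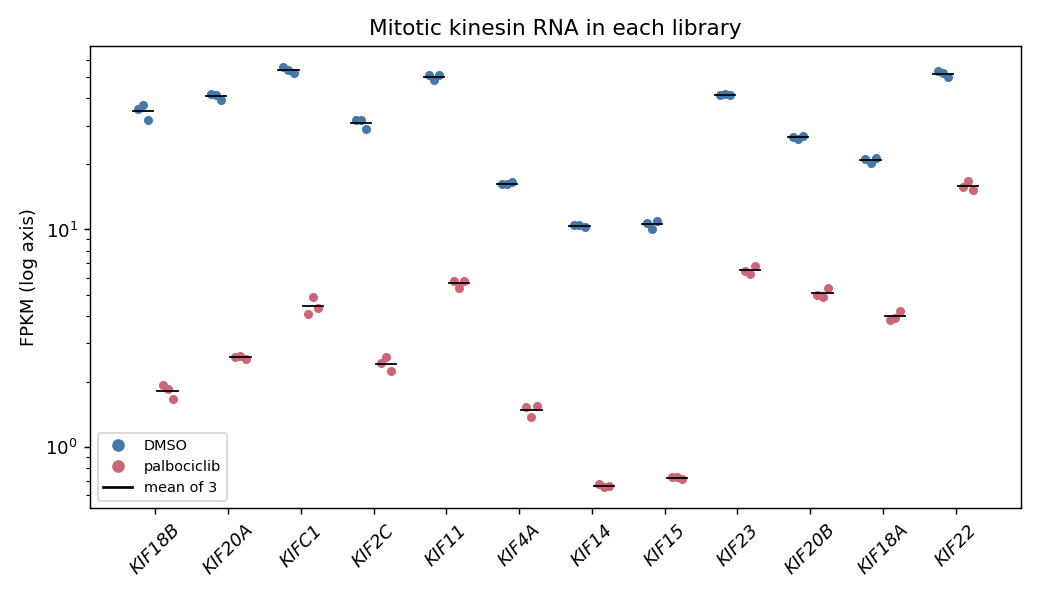
FPKM (log axis) of the 12 tested mitotic kinesins in each of 3 DMSO (blue) and 3 palbociclib (red) libraries, with the mean of 3 as a bar, ordered by log2 change. In every gene the palbociclib libraries sit below the DMSO libraries, with the widest gap in KIF18B (5.17% remaining) and the narrowest in KIF22 (30.5%).

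Of the 11 cargo transport kinesins tested 2 were higher, 1 lower and 8 not called, where 20.9% of all genes were higher and 22.9% lower. In 5 of the 11 every palbociclib library lay above every DMSO library, an order that 26.5% of all genes showed. In 1 every palbociclib library lay below, as in 28.2% of all genes. KIF1C, a vesicle motor and one of the 3 most abundant non-mitotic kinesins, was at 44.6, 46.0 and 46.5 FPKM in DMSO and 47.9, 45.6 and 46.6 FPKM in palbociclib. The groups overlapped (log2 change 0.03, SE 0.03, limma adjusted p = 0.504). KIF5B, a heavy chain of conventional kinesin, was at 42.4, 40.4 and 43.1 FPKM in DMSO and 33.2, 32.2 and 33.8 FPKM in palbociclib. It was lower in all 3 libraries (log2 change -0.34, SE 0.04, limma adjusted p = 0.00019).

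KIFC2, a motor best known from neurons, was the most abundant kinesin outside the mitotic set, at 63.1, 61.6 and 60.1 FPKM in DMSO and 75.6, 74.1 and 67.6 FPKM in palbociclib. It rose by 0.23 log2 (SE 0.05, limma adjusted p = 0.00414). KIF13B, a plus-end vesicle motor, rose further, from 7.91, 8.60 and 7.65 FPKM in DMSO to 10.5, 11.0 and 11.2 FPKM in palbociclib (log2 change 0.40, SE 0.06, limma adjusted p = 0.000649). Its close relative KIF13A, which carries endosomal cargo, was at 24.1 to 25.3 FPKM in DMSO and 26.0 to 26.8 FPKM in palbociclib, without overlap but not called (log2 change 0.08, limma adjusted p = 0.0986). The rest of the transport motors tested, KIF1B, KIF3A, KIF3B, KIF3C, KIF16B and KIFC3, had log2 changes from -0.02 (KIF3C) to 0.14 (KIFC3). Another scaling changes this: after quantile normalization KIF3A, KIF3B, KIF13A, KIF16B and KIFC3 were called higher too, in a fit whose median over all genes was 0.0567 log2. KIF5A and KIF5C were below the filter in both treatments.

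KIF24 stood apart from the rest of the cilium group. It is a centriolar kinesin that holds back cilium formation in cycling cells, and was at 3.21, 3.37 and 2.79 FPKM in DMSO and 0.631, 0.484 and 0.552 FPKM in palbociclib. All palbociclib libraries were below all DMSO libraries, with 17.8% ± 2.35 remaining (log2 change -1.41, SE 0.08, limma adjusted p = 3.79e-06), a remaining share in the range of the mitotic kinesins. The added 1 FPKM also compresses the KIF24 fall. In the authors' deposited table its log2 change was -2.50, beside -1.71 for KIF22 and -2.38 for both KIF18A and KIF20B. KIF6, KIF9 and KIF27, linked to motile cilia, had log2 changes of 0.16, -0.02 and 0.08 and were not called. KIF7, of hedgehog signalling, was listed at 0.417 to 0.477 FPKM in DMSO and 0.374 to 0.476 FPKM in palbociclib and not tested.

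In the group of microtubule regulation or other roles, KIF2A is a depolymerase related to KIF2C. It was at 23.9, 24.2 and 25.2 FPKM in DMSO and 17.7, 18.9 and 18.9 FPKM in palbociclib. It was lower in all 3 libraries, by far less than KIF2C (log2 change -0.38, SE 0.04, limma adjusted p = 0.000175). The grouping used here did not count KIF2A as mitotic, and another grouping could. With KIF2A included, not every mitotic kinesin would have fallen by at least 1 log2. KIF21A, which slows microtubule growth at the cell cortex, was at 28.2, 25.5 and 29.2 FPKM in DMSO and 24.6, 25.1 and 23.8 FPKM in palbociclib. Its fall was small and close to the threshold (log2 change -0.17, SE 0.05, limma adjusted p = 0.0354). It lost its call in 8 of 13 alternative analyses, in which the adjusted p reached 0.209. These included leaving out DMSO replicate 1 or 3 or any 1 palbociclib library.

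KIF12, a kinesin of epithelial organs, had the largest rise of the family. It was at 6.64, 6.29 and 5.35 FPKM in DMSO and 10.2, 9.97 and 8.66 FPKM in palbociclib (log2 change 0.58, SE 0.09, limma adjusted p = 0.0008). KIF26A was below the filter, at 0.124, 0.153 and 0.123 FPKM in DMSO and 0.019, 0.007 and 0.013 FPKM in palbociclib. The authors' deposited table gives it a log2 change of -3.38 with an adjusted p of 1.71e-06, in a table where 20.3% of genes were lower and 17.9% higher at 0.05. KIF21B was listed at no more than 0.0858 FPKM in any library.

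**Figure D4:**
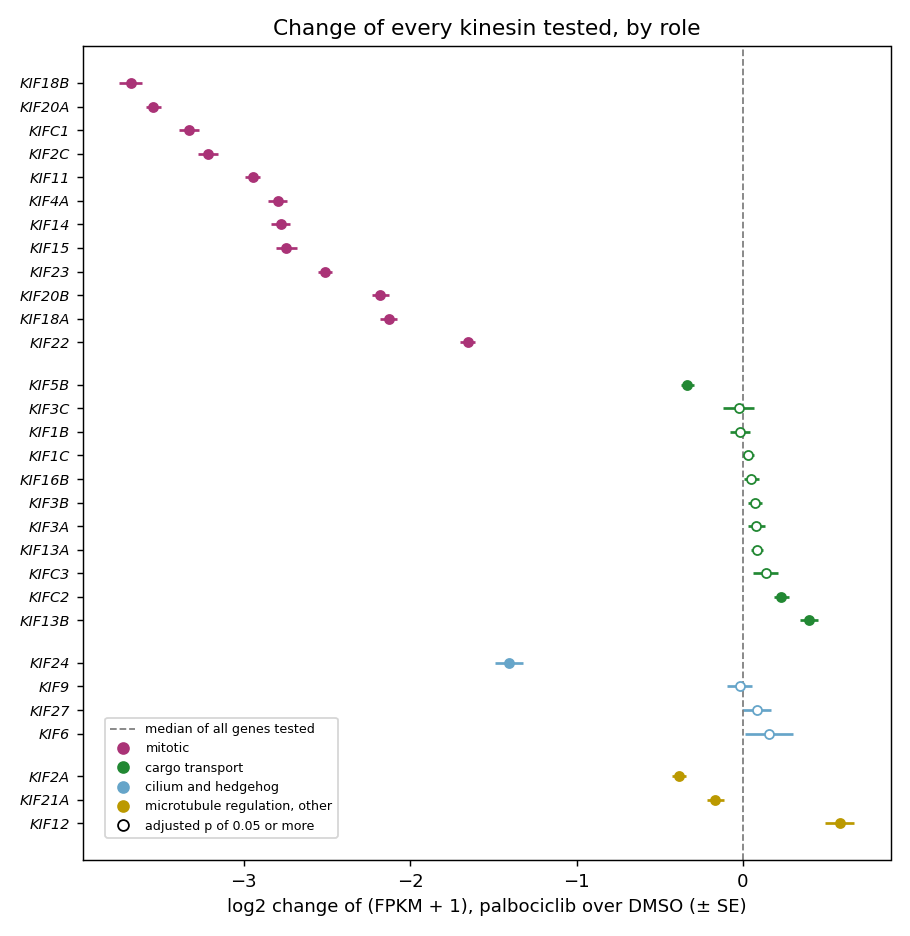
Change of log2(FPKM + 1), palbociclib over DMSO, for the 30 kinesins tested, grouped by role; bars are SE, filled points have an adjusted p under 0.05, and the dashed line is the median of all genes tested. All 12 mitotic kinesins lie between -3.68 and -1.65, and outside them KIF24 alone lies below -1.

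Related kinesins were compared within each library, as the difference of their log2(FPKM + 1) levels, for 5 pairs. The pairs were chosen after values were seen. KIF2C fell by 2.83 log2 relative to KIF2A (SE 0.08), and KIFC1 fell by 3.56 relative to KIFC2 (SE 0.08). Within the mitotic set KIF18B fell by 1.55 relative to KIF18A (SE 0.11) and KIF20A fell by 1.36 relative to KIF20B (SE 0.06). KIF13B gained 0.31 over KIF13A (SE 0.06). In each pair the 3 DMSO differences and the 3 palbociclib differences did not overlap. With pairs chosen this way, such an order gives no support on its own, and its share over all gene pairs was not computed. The exact permutation test, two-sided, gave p = 0.1 in all 5 pairs (0.1 after adjustment over them), the smallest value that 3 against 3 libraries allow.

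RNA of the proteins that mitotic kinesins work with was also lower. Of 20 such partners 19 were lower, 18 of them by at least 1 log2, and 1 was higher, with a median change of -2.69. Over all genes tested 22.9% were lower, 3.04% lower by at least 1 log2 and 20.9% higher. The list of partners was chosen with earlier results of these data known. The largest falls were those of AURKB, a kinase of the chromosomal passenger complex (43.1 ± 1.94 to 2.03 ± 0.156 FPKM, SD, n = 3, log2 change -3.86), NUSAP1, a microtubule bundler (log2 change -3.76), and BIRC5, the passenger protein survivin (61.7 ± 0.893 to 4.88 ± 0.164 FPKM, -3.41). RACGAP1, the partner of KIF23 in centralspindlin, fell by 2.41 log2 and CENPE, the kinetochore kinesin whose symbol lies outside the naming rule, fell by 2.46. NUMA1, which tethers dynein at spindle poles, was the 1 partner that was higher (log2 change 0.18).

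Partners of the transport motors and genes of the opposing motor were called about as often as genes in general, of which 20.9% were higher and 22.9% lower. Of 19 kinesin light chains and adaptors 6 were higher, 3 lower and 10 not called, with a median of 0.02. The largest changes were those of KIFAP3, the third subunit of the KIF3A and KIF3B motor (12.4 ± 0.341 to 16.5 ± 0.959 FPKM, log2 change 0.38), and of the conventional kinesin light chains KLC1 (34.6 ± 0.913 to 26.8 ± 1.47 FPKM, -0.36) and KLC4 (14.7 ± 2.28 to 18.6 ± 1.31 FPKM, 0.33). KLC1 and KIF5B are light and heavy chain of one motor. Of 26 genes of dynein, the minus-end motor, and its cofactor dynactin, 6 were higher, 6 lower and 14 not called (median 0.04). Their largest changes were NDE1, a dynein regulator that also acts in mitosis (-0.97), DYNLL1, a light chain (-0.43), and DCTN3, a dynactin subunit (-0.28).

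Chromatin at kinesin gene starts became slightly less open where it changed. The ATAC table held 26 peaks within 1 kb of the start of 22 kinesins. In edgeR's quasi-likelihood test, adjusted over all 38121 peaks, 11 were lower, 0 higher and 15 not called. Over all 7248 peaks within 1 kb of a gene start 11.4% were lower and 1.78% higher. DESeq2 likewise called 0 higher, and at an unadjusted p under 0.05 edgeR had 0 higher. Of the 8 start peaks of mitotic kinesins 7 were lower, with a median log2 change of -0.31, beside -0.05 over all start peaks. Of the 18 start peaks of the other kinesins 4 were lower, with a median of -0.06. These changes are far smaller than those in RNA. KIF14, KIF20A, KIF22 and KIF23 had no peak within 1 kb of their start in the table, so their starts were not measured.

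The start of KIF18B, the steepest fall in RNA, was also the steepest in accessibility. Its peak at chr17:44947260-44948230 (GRCh38), which contains the promoter stretch shown above, had 110, 114 and 125 CPM (counts scaled to the reads in peaks of each library, with TMM) in DMSO and 71.6, 69.6 and 74.0 CPM in palbociclib. The groups were well separated (log2 change -0.70, SE 0.06, edgeR adjusted p = 6.29e-16). KIF11, at chr10:92592551-92593514, had the next largest fall among the mitotic starts, with 103, 91.4 and 100.3 CPM in DMSO and 75.6, 76.7 and 75.9 CPM in palbociclib (log2 change -0.37, SE 0.06, edgeR adjusted p = 1.56e-06). KIF2C, at chr1:44739412-44740179, had 57.3, 53.4 and 58.9 CPM in DMSO and 46.1, 46.9 and 42.2 CPM in palbociclib (log2 change -0.32, SE 0.07, edgeR adjusted p = 0.000421).

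At KIF15 and KIF4A the peak also covers the start of a neighbour on the opposite strand. The KIF15 peak, at chr3:44761280-44762255 and shared with KIAA1143, had 80.8, 78.1 and 83.7 CPM in DMSO and 65.9, 65.4 and 60.0 CPM in palbociclib (log2 change -0.34, SE 0.06, edgeR adjusted p = 2.16e-05). The KIF4A peak, at chrX:70289667-70290676 and shared with PDZD11, had 33.6 to 36.3 CPM over the 3 DMSO libraries and 27.1 to 29.8 CPM over the 3 palbociclib libraries (log2 change -0.29, SE 0.08, edgeR adjusted p = 0.0084). In both, no palbociclib library reached a DMSO library.

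Falls at the other mitotic starts were small. KIFC1, at chr6:33391198-33392128, had 234, 223 and 246 CPM in DMSO and 225, 207 and 205 CPM in palbociclib, with overlap (log2 change -0.14, SE 0.05, edgeR adjusted p = 0.0311). KIF20B, at chr10:89701139-89702142, had 169, 168 and 172 CPM in DMSO and 153, 163 and 147 CPM in palbociclib (log2 change -0.14, SE 0.05, edgeR adjusted p = 0.0434). Neither call was firm: KIFC1 lost it in 6 of 11 alternatives (adjusted p from 0.0117 to 0.22) and KIF20B in 8 of 11 (0.0187 to 0.164), among them leaving out DMSO replicate 1 or 3 or palbociclib replicate 3 for both, palbociclib replicate 2 for KIFC1, and DMSO replicate 2 or palbociclib replicate 1 for KIF20B. KIF18A, at chr11:28107691-28108572 and shared with METTL15, had 147, 144 and 143 CPM in DMSO and 139, 134 and 137 CPM in palbociclib and was not called (log2 change -0.08, edgeR adjusted p = 0.265).

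**Figure D5:**
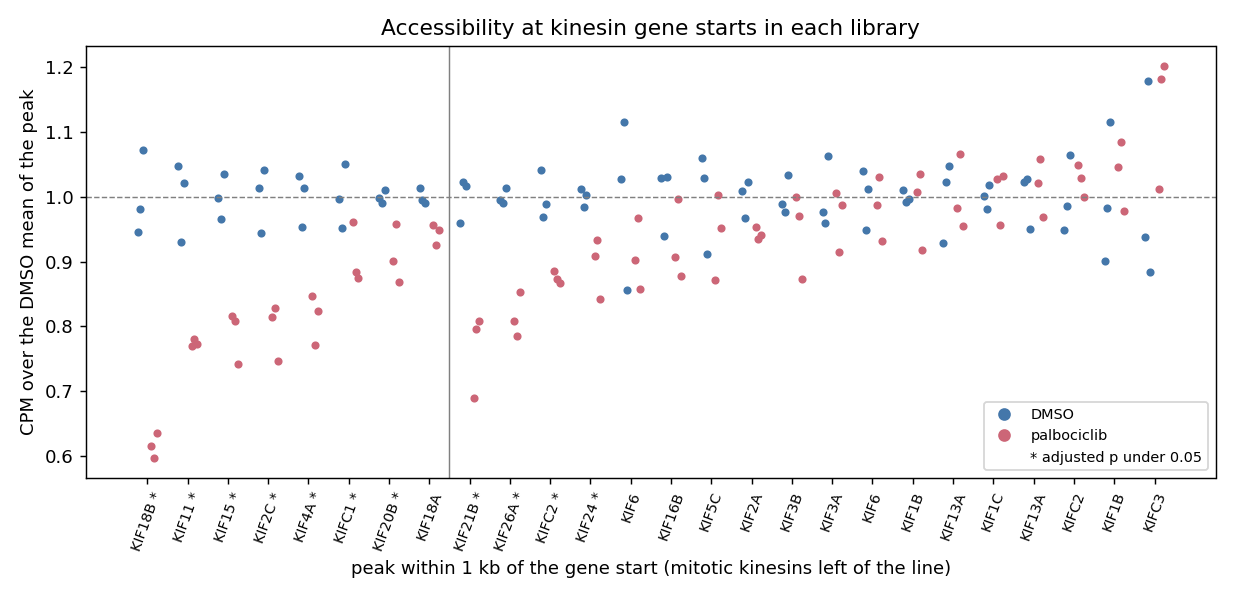
CPM of each of the 26 peaks within 1 kb of a kinesin start, divided by its DMSO mean, for 3 DMSO (blue) and 3 palbociclib (red) ATAC libraries; mitotic kinesins are left of the line and an asterisk marks an adjusted p under 0.05. The KIF18B peak lies lowest in palbociclib (log2 change -0.70), and 7 of 8 mitotic against 4 of 18 other peaks carry an asterisk.

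Outside the mitotic set, start peaks of KIF21B, KIF26A, KIFC2 and KIF24 were lower. KIF21B, at chr1:201023586-201023848, had 23.3, 24.8 and 24.7 CPM in DMSO and 16.7, 19.3 and 19.6 CPM in palbociclib (log2 change -0.39, SE 0.09, edgeR adjusted p = 0.00288). The KIF26A peak, at chr14:104137426-104138123 and shared with KIF26A-DT, went from 39.7 ± 0.506 to 32.3 ± 1.36 CPM (SD, n = 3, log2 change -0.29, edgeR adjusted p = 0.00501). KIF24, at chr9:34329011-34329855 and shared with NUDT2, went from 117 ± 1.67 to 105 ± 5.54 CPM (SD, n = 3, log2 change -0.16, edgeR adjusted p = 0.0307).

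KIFC2, whose RNA rose, had a lower peak downstream of its start, at chr8:144466633-144467143, from 69.2 ± 2.61 to 60.6 ± 0.665 CPM (SD, n = 3, log2 change -0.19, edgeR adjusted p = 0.0271). Its other start peak, upstream at chr8:144465028-144465564, was not called (log2 change 0.04, edgeR adjusted p = 0.76). Both peaks also lie within 1 kb of the start of TMEM276-ZFTRAF1. The KIF24 and KIFC2 calls were each lost in 5 of 11 alternatives, with adjusted p up to 0.151 and 0.125, among them without DMSO replicate 1, DMSO replicate 3 or palbociclib replicate 1 for both, palbociclib replicate 3 for KIF24 and palbociclib replicate 2 for KIFC2. The 14 start peaks not called outside the mitotic set, among them those of KIF1C, KIF2A, KIF3A and KIF3B, had log2 changes from -0.14 (KIF6) to 0.16 (KIFC3).

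Some peaks farther inside kinesin genes moved the other way. Of 39 peaks inside 21 genes and more than 1 kb from the start, 4 were higher and 2 lower, where 5.41% of all peaks were higher and 6.46% lower. Inside KIF18B, 5276 bases downstream of the start at chr17:44941620-44942497, accessibility was 39.0, 40.8 and 35.9 CPM in DMSO and 54.0, 53.1 and 51.6 CPM in palbociclib. This peak rose by 0.45 log2 (SE 0.07, edgeR adjusted p = 1.86e-06) in the gene whose start peak fell most. Inside KIF23, at chr15:69422099-69422867, accessibility was 5.50 to 7.68 CPM over the 3 DMSO libraries and 7.69 to 12.4 CPM over the 3 palbociclib libraries, with palbociclib replicate 3 lowest and next to the highest DMSO library (log2 change 0.67, SE 0.16, edgeR adjusted p = 0.00183).

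Inside KIF11, near its end at chr10:92644170-92644779, a weak peak went from 5.26 ± 0.761 to 7.64 ± 0.881 CPM (SD, n = 3, log2 change 0.53, edgeR adjusted p = 0.0276). Inside KIF21B, at chr1:200969775-200970439, a peak went from 20.0 ± 1.73 to 24.3 ± 1.21 CPM (SD, n = 3, log2 change 0.28, edgeR adjusted p = 0.0398). The KIF11 call was lost in 4 and the KIF21B call in 5 of 11 alternatives (adjusted p up to 0.142 and 0.18), without DMSO replicate 1 in both. The other leave-outs that ended a call were DMSO replicate 2 and palbociclib replicate 2 for KIF11, and DMSO replicate 3 and palbociclib replicates 1 and 3 for KIF21B. The lower peaks were 1 inside KIFC3, at chr16:57764521-57765174 (20.9 ± 1.37 to 14.6 ± 1.73 CPM, SD, n = 3, log2 change -0.52, edgeR adjusted p = 0.000282), and 1 at the end of KIF22, at chr16:29805195-29806136. The KIF22 peak (97.2 ± 7.83 to 79.3 ± 6.98 CPM, SD, n = 3, log2 change -0.29, edgeR adjusted p = 0.000352) also covers the start of MAZ.

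No change in splicing of kinesin transcripts passed the test. The authors' rMATS tables list 362 events in 31 kinesins, and 101 events in 23 genes had enough reads (20 per library on average, with the rarer form at 5% or more). Tested with edgeR's quasi-likelihood fit to the reads for and against inclusion, 0 of the 101 were called. At an unadjusted p under 0.05 there were 6 by edgeR, where 8.53% of all 37445 events tested had such a p, and 3 by DESeq2, which also called 0. Calls were rare everywhere, with higher inclusion in 0.246% and lower inclusion in 0.104% of all events. By the FDR in the authors' deposited rMATS output, 5 of the 101 events were under 0.05, beside 3.82% of all events tested. In 12 of the 101 events no library of one treatment reached those of the other (13.7% of all events).

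Inclusion levels, the share of transcripts that contain an exon, are given for the events with the largest non-overlapping shifts and at least 50 reads, 1 per gene. A 195-base exon of KIF9 at chr3:47243051-47243245 was included at 0.935, 1 and 1 in DMSO and 0.659, 0.876 and 0.777 in palbociclib (edgeR quasi-likelihood adjusted p = 0.29). Its skipping reads numbered 1, 0 and 0 in DMSO and 8, 3 and 8 in palbociclib, and the authors' deposited FDR was 0.000521. In KIF23, the 312-base exon at chr15:69440768-69441079, the upstream exon of a mutually exclusive pair, was used at 0.176, 0.161 and 0.144 in DMSO and 0.109, 0.118 and 0.128 in palbociclib. This event rested on a mean of 1441 reads per library and had the lowest edgeR p of the family (adjusted p = 0.168).

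In KIF24, on the minus strand, the 98-base exon at chr9:34297017-34297114 went from 0.366 ± 0.0452 to 0.495 ± 0.0578 as the upstream exon of such a pair (SD, n = 3, edgeR adjusted p = 0.857). An alternative 3′ splice site in KIF1B went from 0.137 ± 0.0312 to 0.0883 ± 0.0194 (SD, n = 3, edgeR adjusted p = 0.801), and an alternative 5′ splice site in KIF2A from 0.690 ± 0.0305 to 0.642 ± 0.0174 (SD, n = 3, edgeR adjusted p = 0.787). At this depth none of these shifts was told apart from the spread between libraries after adjustment.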

How the data were processed

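Members and comparison lists were chosen with earlier results of these data known. Genes were named by rule. Every tested mitotic member, up to 8 other members with the largest called changes (7 were called) and the 3 other members of highest level have values by library. Each comparison list has its 3 largest called changes, with RACGAP1, CENPE and NUMA1 added after their values were seen. Start peaks were all accounted for, as were called inside peaks and the 5 events of largest shift.

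FPKM per gene and library were deposited by the authors. The authors also deposited a table of log2 fold changes with p-values. The submitters' processing notes list fastp 0.23.2, Salmon 1.10.2, STAR 2.7.10b, SAMtools 1.16 and DESeq2 1.44.0 for RNA, and Bowtie2, Picard, MACS3, featureCounts and DESeq2 for ATAC, on GRCh38. The rMATS tables deposited by the authors hold read counts for and against inclusion, inclusion levels as a fraction, and p-values with FDR. Reads per peak are counts by featureCounts over 1 peak set, per the file headers. The strand setting of the RNA counting is not given in the sources used here, so reads of KIF23 and its antisense gene may not be separable.

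Here, limma 3.58.1 with an intensity trend was run in R 4.3.3, edgeR 4.0.16 with TMM and filterByExpr (0 peaks removed) on peak counts, and edgeR on splicing counts with a term per library, adjusted within event type. DESeq2 1.42.0 was an alternative. Quantile normalization, other filters, a pseudocount of 0.1, a replicate block and leaving out each library were tried as well. Gene starts came from the RefSeq tables on GRCh38.p14, with strand from the splicing tables or promoter table. Scripts were tested on simulated data. The promoter shares among genes tested for RNA, the relative pairs and the neighbouring genes were added after values were seen.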

Additional observations from a re-analysis of the deposited data

How the results depend on the processing

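The 1018 values under alternatives were single changes and counts of calls. Of the single changes 747 kept their call or lack of one, 41 lost a call, 6 gained one and 0 reversed. A reversal needed a change of sign with a call in either fit. Of the counts, which cannot reverse, 215 stayed the same or close and 9 moved further. All 12 tested mitotic kinesins were lower under each RNA alternative. Quantile normalization raised the number of higher kinesins from 3 to 8, all outside the mitotic set. Over all genes it moved the split from 3312 higher and 3628 lower to 4588 and 2856. Scaling ATAC by library totals in place of TMM moved that of all peaks from 2061 higher and 2464 lower to 2573 and 2030. DESeq2 gave 7 lower start peaks (11 with edgeR) and 2 higher inside peaks (4 with edgeR). Leaving out 1 library gave 7 to 10 lower start peaks (7 without DMSO replicate 1 or 3) and 2 to 3 higher inside peaks (2 without DMSO replicate 1). The authors' deposited rMATS FDR called 2 kinesin events with higher and 3 with lower inclusion, where edgeR called 0 and 0. The cause was not tested. The labels do not say that equal replicate numbers share a day or batch. Correlations of same-numbered deviations were 0.106, -0.005 and 0.088 for RNA and 0.006, 0.042 and -0.028 for ATAC. Those of differently numbered libraries ran from -0.139 to 0.051 for RNA and from -0.070 to 0.061 for ATAC. The RNA values of replicates 1 and 3 thus lay above that range, and the ATAC values lay within it. With a replicate block 15 kinesins were lower (16 without), KIF21A losing its call, and 9 start peaks were lower (11 without), those of KIFC1 and KIF20B losing theirs, with 3 lower inside peaks (2 without). With 3 libraries per group, small changes may be missed, and weakly expressed kinesins were not tested.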

Other observations

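Genes that start within 1 kb of a kinesin on the opposite strand gave a local comparison. BRD8, a bromodomain protein whose start lies 482 bases from that of KIF20A, fell from 55.5 ± 0.289 to 38.4 ± 1.13 FPKM (SD, n = 3, log2 change -0.52, limma adjusted p = 6.32e-06). KIAA1143, 175 bases from KIF15, fell from 28.2 ± 1.43 to 21.2 ± 0.889 FPKM (SD, n = 3, log2 change -0.39, limma adjusted p = 0.000343). PDZD11, 177 bases from KIF4A, fell by 0.18 log2 (limma adjusted p = 0.0423). The falls of KIF20A, KIF15 and KIF4A themselves were -3.54, -2.74 and -2.80 log2. METTL15 next to KIF18A (log2 change 0.05), NUDT2 next to KIF24 (0.06) and the antisense gene KIF23-AS1 (0.13) were not called. Nor were INCA1 next to KIF1C (0.18) and KLHL18 next to KIF9 (-0.04). No other such neighbour was tested. Over all genes tested 22.9% were lower.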
